A study of Mus musculus with 8 samples.

Results

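Carbonic anhydrases are zinc enzymes that interconvert carbon dioxide and bicarbonate, and the 5 family members Car2, Car3, Car4, Car12 and Car14 are described here in mouse embryonic stem (ES) cells. The members were chosen from the intensities of these same arrays, so their values are given as a description and carry no test. They are covered by 11 of the 45101 probe sets on the array, each annotated with that gene alone, and are 5 of 18194 genes so annotated. Of the 5 genes, 4 passed the filter on low values and Car12 did not.

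The study profiled 8 Affymetrix mouse genome arrays in 4 groups of 2. The groups were Rbp2-/- cells after 6 days in medium lacking leukemia inhibitory factor (LIF), Rbp2f/f cells after the same 6 days, Rbp2-/- cells in medium with LIF, and Rbp2f/f cells in medium with LIF. Rbp2f/f cells carry conditional copies of the gene for RBP2 (retinoblastoma-binding protein 2), now named Kdm5a, an enzyme that removes methyl groups from histone H3 at lysine 4, and in Rbp2-/- cells that gene is deleted. LIF is a cytokine added to culture medium to hold mouse ES cells in the undifferentiated state. The labels name the replicates biological but give neither culture nor clone. Any p-value therefore measures the spread between these samples, which may be partly technical.

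The brightest Kdm5a probe set read 100 and 80.2 in Rbp2-/- cells against 225.7 and 246.6 in Rbp2f/f cells without LIF, and 31.2 and 30.6 in Rbp2-/- cells against 128.2 and 167.2 in Rbp2f/f cells with LIF. The genotypes did not overlap in either medium, and the limma adjusted p was 0.088 without and 0.022 with LIF. Quantile normalization ended the call with LIF (0.078), as did omitting replicate 2 of either genotype with LIF (0.14 for the Rbp2-/- array and 0.23 for the Rbp2f/f array). The 2% trimmed mean intensity was 77.5 on replicate 2 of Rbp2-/- with LIF and 110.5 to 128.4 on the other 7 arrays, so that 1 array was dim. The summed intensity of 8 ES cell markers, Pou5f1, Nanog and Sox2 among them, was 3411 to 3959 in Rbp2-/- and 4429 to 4680 in Rbp2f/f cells without LIF. With LIF it was 12970 to 19891 in Rbp2-/- and 21135 to 21722 in Rbp2f/f cells. All 8 markers were lower without LIF in each genotype (limma, adjusted p under 0.05). These are whole cultures, in which fewer cells of a type and less RNA per cell cannot be told apart.

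By speeding the interconversion of carbon dioxide with bicarbonate and protons, carbonic anhydrases help to regulate pH inside cells and at their surface. They work beside bicarbonate transporters and proton pumps. Family members differ in where they act. Car2 is the fast cytosolic enzyme of red cells, kidney and osteoclasts, and Car3 is a slow cytosolic enzyme abundant in skeletal muscle, fat and liver. Car4 is tethered to the outer cell surface by a lipid anchor, and Car12 and Car14 span the membrane with the enzyme domain outside. The genes of the cytosolic Car13, Car1, Car3 and Car2 lie next to each other in that order on mouse chromosome 3 in the RefSeq annotation of GRCm38.p6. Car14 lies on the same chromosome, Car12 on chromosome 9 and Car4 on chromosome 11.

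The RefSeq promoter table (GRCm38.p6) held windows for 3 of the 5 members, Car4, Car12 and Car14, from 250 bases before to 50 bases after the transcription start. No window was held for Car2 or Car3. The 3 shown are of surface enzymes. Their brightest probe sets were higher without LIF than with it in Rbp2-/- cells, with no overlap of arrays. So was Car2, and so were 52% of tested genes. Capitals mark the core of the hypoxia response element, searched as ACGTG or GCGTG on either strand, so a palindromic CACGTG counts on each strand. The windows lie at chr11:84957504-84957803 on the plus strand (Car4), chr9:66713436-66713735 on the plus strand (Car12) and chr3:95904636-95904935 on the minus strand (Car14), and each is written 5′ to 3′ along its gene.
Car4: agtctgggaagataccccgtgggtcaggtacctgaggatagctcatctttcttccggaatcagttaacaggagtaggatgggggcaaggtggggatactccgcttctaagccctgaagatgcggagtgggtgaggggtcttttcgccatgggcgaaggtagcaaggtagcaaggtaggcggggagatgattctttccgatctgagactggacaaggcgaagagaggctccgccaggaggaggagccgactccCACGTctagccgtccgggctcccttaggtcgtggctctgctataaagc
Car12: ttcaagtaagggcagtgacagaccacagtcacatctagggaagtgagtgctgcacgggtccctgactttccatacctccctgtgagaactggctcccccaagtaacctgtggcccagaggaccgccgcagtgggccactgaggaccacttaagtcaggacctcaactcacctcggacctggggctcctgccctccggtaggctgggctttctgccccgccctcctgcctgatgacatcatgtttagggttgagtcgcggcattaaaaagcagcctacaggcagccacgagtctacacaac
Car14: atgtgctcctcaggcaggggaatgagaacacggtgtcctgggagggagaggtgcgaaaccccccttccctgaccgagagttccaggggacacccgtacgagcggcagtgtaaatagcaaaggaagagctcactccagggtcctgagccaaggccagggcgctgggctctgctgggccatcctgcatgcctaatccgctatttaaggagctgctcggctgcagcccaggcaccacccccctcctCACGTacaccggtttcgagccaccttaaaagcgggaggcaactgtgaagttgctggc
Car4 had 1 match, on the opposite strand, beginning at base 3 after the start, and Car14 had 1, also on the opposite strand, beginning at base -7. Car12 had 0 in this window. Of 32851 windows of 300 bases in the table, 43.8% held at least 1 match, so a single match is common. A match is a string of letters and was not tested as a binding site.

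Car4 had the largest difference among the 5 genes in the 4 comparisons, on LIF withdrawal in Rbp2-/- cells. Its brightest probe set (1418094_s_at) read 3969.7 and 1830.7 in Rbp2-/- cells without LIF, against 906.2 and 398.9 in Rbp2f/f cells without LIF. With LIF it read 267.2 and 127.3 in Rbp2-/- cells, against 296.6 and 642.5 in Rbp2f/f cells. The means were 2900 ± 1512.5 for Rbp2-/- and 653 ± 359 for Rbp2f/f without LIF, and 197 ± 98.9 for Rbp2-/- and 470 ± 245 for Rbp2f/f with LIF (SD, n = 2 in each group here and below). Rbp2-/- cells were thus above Rbp2f/f cells without LIF on each array and below them with LIF on each array, although the replicates of every group differed by over 2-fold and the gap with LIF, 267.2 to 296.6, was narrow.

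The ratio of mean Car4 intensities, Rbp2-/- over Rbp2f/f, was 4.44 without LIF and 0.42 with LIF. The ratio without over with LIF was 14.7 in Rbp2-/- and 1.39 in Rbp2f/f cells, where the arrays overlapped. On the log2(intensity + 16) scale, which understates changes of dim genes, the difference for withdrawal was 3.37 ± 0.46 in Rbp2-/- and 0.38 ± 0.46 in Rbp2f/f cells. These and the following log2 differences are given relative to the median of all tested genes, with standard errors from limma. That median was 0.39 for withdrawal in Rbp2-/-, 0.07 in Rbp2f/f, -0.28 for genotype with LIF and 0.02 without. All p-values below are from limma for the difference before this median was subtracted.

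The other Car4 probe set (1448949_at) read 3996.7 and 1855.1 in Rbp2-/- against 867.2 and 379.3 in Rbp2f/f cells without LIF, close to the first. With LIF it read 183.3 and 92.3 in Rbp2-/- against 163.9 and 647.1 in Rbp2f/f cells, and here the genotypes overlapped. For Car4 with LIF, the separation of genotypes therefore rested on 1 of 2 probe sets.

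**Figure D1:**
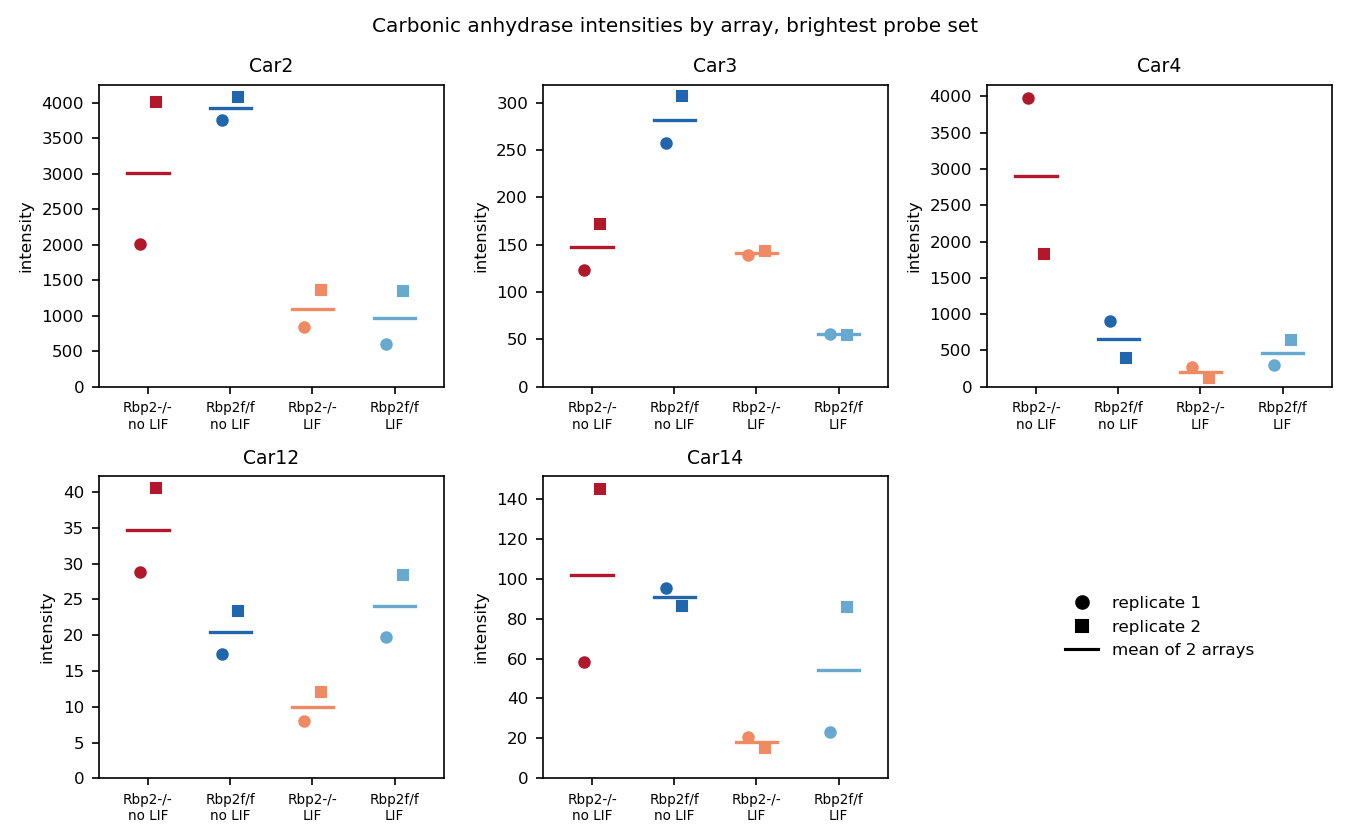
Intensity (linear axis) of the brightest probe set of each carbonic anhydrase on the 8 arrays, with circles for replicate 1, squares for replicate 2 and lines for the mean of 2. Car4 stands at 3969.7 and 1830.7 in Rbp2-/- cells without LIF and at or below 906.2 elsewhere, while Car3 is at 54.5 to 56 in Rbp2f/f cells with LIF.

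Car3 showed the opposite order of genotypes. Its brightest probe set (1449434_at) read 123.8 and 172.1 in Rbp2-/- against 257.1 and 306.5 in Rbp2f/f cells without LIF. With LIF it read 139.1 and 143.6 in Rbp2-/- against 56 and 54.5 in Rbp2f/f cells. Rbp2-/- cells were below Rbp2f/f cells on each array without LIF and above them on each array with LIF. As deposited, the replicates lay close together. After scaling each array to the same trimmed mean, Car3 read 142.5 and 209.7 in Rbp2-/- cells with LIF, the latter on the dim array. Without LIF the Rbp2-/- arrays then read 119.6 and 151.7, and the genotypes stayed apart in each medium.

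In Rbp2-/- cells the mean Car3 intensity was 148 ± 34.2 without and 141 ± 3.18 with LIF, a ratio of 1.05, and the arrays overlapped. After trimmed-mean scaling that ratio was 0.77, and the arrays still overlapped. In Rbp2f/f cells it was 282 ± 34.9 without and 55.2 ± 1.06 with LIF, a ratio of 5.10. The log2 difference for withdrawal was -0.34 ± 0.26 in Rbp2-/- and 1.99 ± 0.26 in Rbp2f/f cells. The genotype difference was -0.90 ± 0.26 without LIF and 1.42 ± 0.26 with LIF. With all 4 Car3 probe sets averaged, the difference was 1.07 for withdrawal in Rbp2f/f, -0.49 for genotype without LIF and 0.84 with LIF.

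A second Car3 probe set (1460256_at) had the same order of group means. It read 66.8 and 71.2 in Rbp2-/- against 114.5 and 100.5 in Rbp2f/f cells without LIF, and 52 and 44.8 in Rbp2-/- against 14 and 13.4 in Rbp2f/f cells with LIF. For this probe set the Rbp2-/- arrays without LIF lay above those with LIF, with a ratio of means of 1.43. The remaining pair (1430584_s_at and 1453588_at) stayed at or under 13.6 on all 8 arrays and showed no such order.

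**Figure D2:**
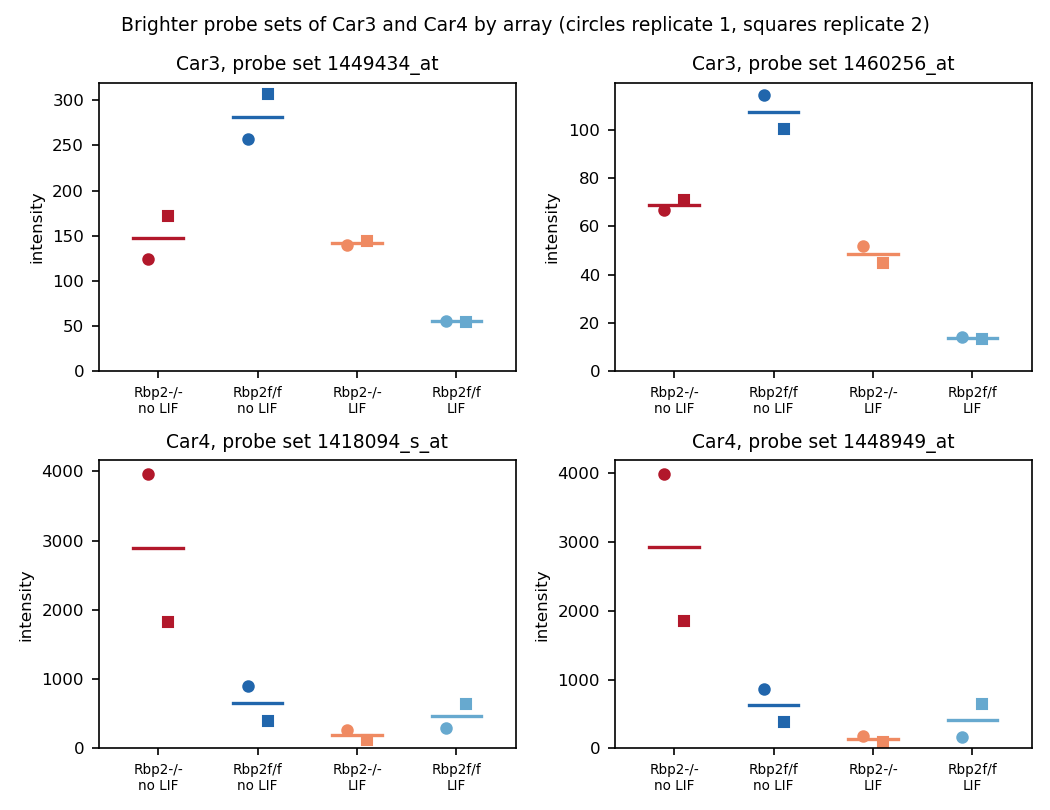
Intensity (linear axis) of the 2 brighter probe sets of Car3 (top) and of Car4 (bottom) on each array, with lines for the mean of 2. Both Car3 probe sets place Rbp2-/- below Rbp2f/f without LIF and above it with LIF, and both Car4 probe sets place Rbp2-/- without LIF highest.

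Car2, the neighbour of Car3 on chromosome 3, had higher intensities without LIF in each genotype. Its single probe set (1448752_at) read 2004.2 and 4002.6 in Rbp2-/- and 3756.6 and 4079.6 in Rbp2f/f cells without LIF. With LIF it read 838.5 and 1362.3 in Rbp2-/- and 596.8 and 1347.2 in Rbp2f/f cells. All 4 arrays without LIF lay above all 4 with LIF, and the genotypes overlapped in each medium.

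The ratio of mean Car2 intensities without over with LIF was 2.73 in Rbp2-/- and 4.03 in Rbp2f/f cells, with log2 differences of 1.01 ± 0.37 and 2.04 ± 0.37. Replicates differed by over 1.5-fold in all groups but Rbp2f/f without LIF. After scaling each array to the same trimmed mean, the dim array read 1990 and the lower Rbp2-/- array without LIF 1936, so the media then overlapped in Rbp2-/- cells. The log2 difference was 0.96 after that scaling. Both Rbp2-/- arrays without LIF then lay below both Rbp2f/f arrays, 1936 and 3528 against 3606 and 3807.

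Car14 had higher intensities without LIF in Rbp2-/- cells. Its single probe set (1450725_s_at) read 58.5 and 145 in Rbp2-/- against 95.4 and 86.3 in Rbp2f/f cells without LIF, and 20.9 and 15.2 in Rbp2-/- against 23.2 and 85.6 in Rbp2f/f cells with LIF. Rbp2-/- cells had higher intensities without than with LIF, with a ratio of means of 5.64 and a log2 difference of 1.31 ± 0.41. In Rbp2f/f cells the ratio was 1.67 and the log2 difference 0.69 ± 0.41. Replicate 2 of Rbp2f/f with LIF, at 85.6, lay just below the lower array without LIF at 86.3, and without replicate 1 of that group the Rbp2f/f difference was -0.01. After scaling each array to the same trimmed mean, the lower Rbp2f/f array without LIF read 80.54 and the higher with LIF 82.96, so they overlapped. With LIF the Rbp2-/- arrays were below those of Rbp2f/f by a gap of 20.9 to 23.2, and with that brighter Rbp2f/f array omitted the log2 difference was 0.09, against -0.62 ± 0.41 over all arrays.

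Car12 had the same direction of genotype differences as Car4. Its brightest probe set (1428485_at) read 28.8 and 40.6 in Rbp2-/- against 17.4 and 23.4 in Rbp2f/f cells without LIF, and 8 and 12 in Rbp2-/- against 19.7 and 28.4 in Rbp2f/f cells with LIF. Rbp2-/- cells were above Rbp2f/f cells without LIF and below them with LIF on each array, by log2 differences of 0.45 ± 0.26 and -0.34 ± 0.26. The ratio of means without over with LIF was 3.47 in Rbp2-/- and 0.85 in Rbp2f/f cells. The mean of this probe set, 5.21 on the log2(intensity + 16) scale, lay just under the filter at 5.41, and its readings were near the median of all probe sets on an array (15.7 to 24.6). The other Car12 probe sets stayed at or under 11.1 and showed no such order, and with all probe sets of the gene averaged the genotype difference with LIF was 0.07.

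The share of all 10916 tested genes that behaved likewise was the background for these orders. Without LIF, Car4 and Car12 were above Rbp2f/f with no overlap, as were 30.5% of tested genes, and Car3 was below, as were 22.8%. With LIF, Car3 was above, as were 4.42%, and Car4, Car12 and Car14 were below, as were 39.2%. The genotypes were apart in opposite directions with and without LIF for Car3, Car4 and Car12, and for 10.1% of tested genes. On withdrawal in Rbp2-/- cells Car2, Car4, Car12 and Car14 were higher with no overlap, as were 52% of tested genes, while 7.54% were lower. In Rbp2f/f cells Car2, Car3 and Car14 were higher, as were 38.3%, while 29.9% were lower. Car2 and Car14 were higher in both genotypes, as were 30.8%. After trimmed-mean scaling Car14 in Rbp2f/f and Car2 in Rbp2-/- cells no longer met this. No member moved apart in opposite directions on withdrawal, as 5.42% of tested genes did.

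In limma at an adjusted p under 0.05, withdrawal in Rbp2-/- cells called 22.8% of all tested genes, 19.6% higher and 3.2% lower. In Rbp2f/f cells it called 20%, with 13.2% higher and 6.79% lower. For genotype, 0.229% of genes were called with LIF (0.0641% higher and 0.165% lower). Without LIF it was 0.0275% (0.0183% higher and 0.00916% lower). Calls of the members are not given, since their own values chose them. The difference between the withdrawal effects called 0 of 10916 genes in limma (0%), with 1268 at an unadjusted p under 0.05.

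**Figure D3:**
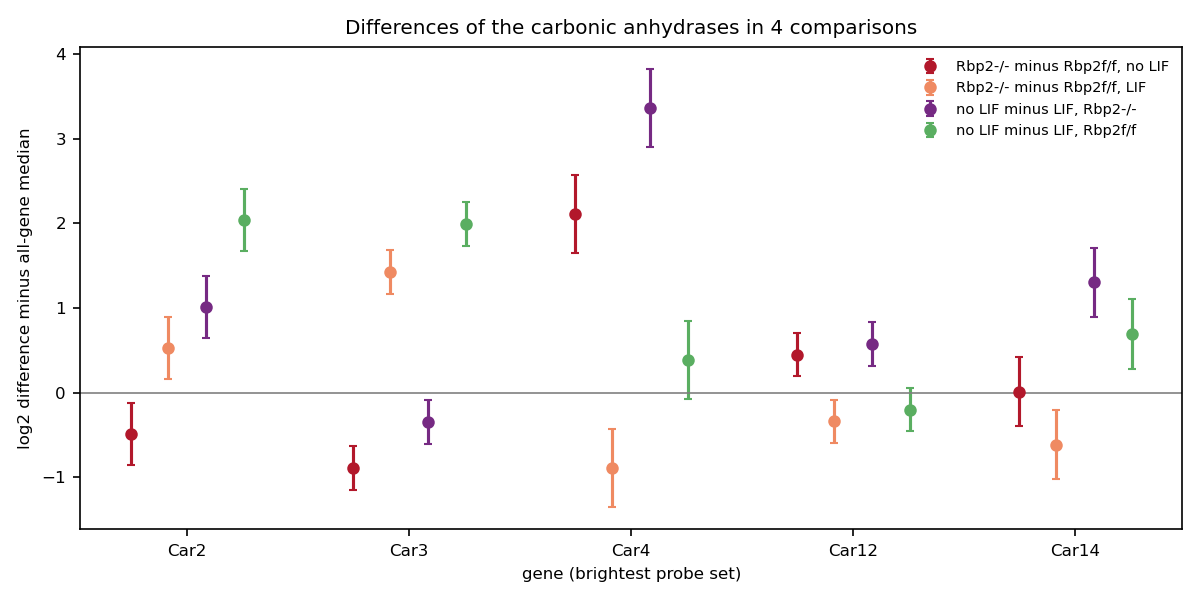
Log2 difference of each member's brightest probe set minus the median of all tested genes, in 4 comparisons, with bars for 1 standard error from limma. Car4 is at 3.37 for withdrawal in Rbp2-/- against 0.38 in Rbp2f/f cells, and Car3 at -0.34 against 1.99.

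Ordered by group mean, Car2 and Car3 were highest in Rbp2f/f without LIF, then Rbp2-/- without LIF, Rbp2-/- with LIF and Rbp2f/f with LIF. For Car3 the middle pair overlapped and its neighbours on either side did not. After trimmed-mean scaling the middle pair of Car3 changed places. For Car2 the genotypes overlapped in each medium, and the step between media did not. Car4 and Car14 shared another order, highest in Rbp2-/- without LIF, then Rbp2f/f without LIF, Rbp2f/f with LIF and Rbp2-/- with LIF. The upper pair overlapped for Car14 and the middle pair for Car4. Car12 had Rbp2-/- without LIF highest and Rbp2-/- with LIF lowest, with the Rbp2f/f groups overlapping between them.

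Markers of cells known for these enzymes were read on the same arrays. The sum over 7 measured erythroid markers was 468.5 and 554.5 in Rbp2-/- and 1114.4 and 166.3 in Rbp2f/f cells without LIF, and 108.2 to 137.1 over the 4 arrays with LIF. On 3 of the 4 arrays without LIF most of it came from the embryonic globin gene Hbb-bh1, at 327.4 and 343.3 in Rbp2-/- and 808.5 and 13.8 in Rbp2f/f cells. Without LIF, Car2 read 2004.2 and 4002.6 in Rbp2-/- and 3756.6 and 4079.6 in Rbp2f/f cells. A link between Car2 and Hbb-bh1 was not tested.

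The sum over 7 muscle and adipocyte markers was 203.4 and 658.8 in Rbp2-/- and 900.1 and 2235.8 in Rbp2f/f cells without LIF, and 169.4 and 568.2 in Rbp2-/- and 270.8 and 201.1 in Rbp2f/f cells with LIF. Nearly all of the higher sums came from the actin gene Acta1. Myog, Adipoq, Fabp4 and Cidec were under the median probe set on every array, and Myod1 stayed at or under 31.9. The sum over 8 extraembryonic endoderm markers was 612.9 and 663.6 in Rbp2-/- and 630.9 and 420 in Rbp2f/f cells without LIF, and 129.5 to 171.2 with LIF. Most of the sums without LIF came from Gata6 (312.6 and 329.5 in Rbp2-/-, 301.8 and 217.1 in Rbp2f/f) and Gata4. Afp and Apoa1 were under the median probe set on every array, and Cubn stayed between 12.2 and 24.3. Amn was lower without LIF in Rbp2f/f cells. The sum over 8 fibroblast markers was 3571.9 and 1299.3 in Rbp2-/- and 1532.6 and 1490.3 in Rbp2f/f cells without LIF, and 336 to 765.8 with LIF. Replicate 1 of Rbp2-/- without LIF was highest in this list and in Car4. In the list this came through the collagen gene Col1a1 (2811.2 against 716.1 in replicate 2). Col3a1, Lum, Dcn and Fbln5 went the other way, with both Rbp2-/- arrays without LIF below both Rbp2f/f arrays without LIF. Col3a1 read 147.5 and 178.8 in Rbp2-/- against 410.8 and 446.1 in Rbp2f/f cells there. For Col1a2, Thy1 and Postn the genotypes overlapped without LIF. The sum over 7 neural markers was 178.9 and 215.6 in Rbp2-/- and 261.2 and 273.2 in Rbp2f/f cells without LIF. With LIF it was 263.4 and 184.8 in Rbp2-/- and 402.6 and 363.6 in Rbp2f/f cells. Of these markers Tubb3 was called lower without LIF in each genotype (limma, adjusted p under 0.05). Mbp was higher without LIF in each genotype but was not called. No marker in these lists was at 0 on any array, which does not show that each was detected, since only 39 values were 0 on all 8 arrays together. Alas2 of the erythroid list and Sox1 and Dcx of the neural list were also under the median probe set on every array. The part of these cell types in the carbonic anhydrase values was not tested.

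Of the other 11 carbonic anhydrase genes on the array, only Car7, Car10, Car11 and Car13 passed the filter. Of these 4, Car13, a cytosolic enzyme encoded beside Car1, was called in 1 comparison and the others in none. It read 136.7 and 90.1 without LIF against 53 and 57.2 with LIF in Rbp2-/- cells, and rose by 0.46 ± 0.27 relative to all genes (limma adjusted p = 0.036 before the median was subtracted). Car13 read 69.8 and 72.2 without against 49.4 and 64.1 with LIF in Rbp2f/f cells (0.20 ± 0.27, adjusted p = 0.54). The Car13 call did not survive quantile normalization (adjusted p = 0.34). It was also lost when any of 5 arrays was left out: replicate 1 of Rbp2-/- without LIF (0.27), either Rbp2-/- array with LIF (0.056 and 0.073) or either Rbp2f/f array without LIF (0.061 each). Its adjusted p spanned 0.033 to 0.35 across alternatives. A second Car13 probe set (1421308_at) read 54.1 and 46.4 in Rbp2-/- and 39.9 and 33.7 in Rbp2f/f cells without LIF, and 22 and 19.6 in Rbp2-/- and 33.9 and 39.4 in Rbp2f/f cells with LIF.

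Car11 and Car10, related proteins without enzyme activity, and Car7, a cytosolic enzyme of the brain, were not called in any comparison. Car11 read 60.2 and 62.8 in Rbp2-/- and 62 and 47.2 in Rbp2f/f cells without LIF, and 41.9 and 35.7 in Rbp2-/- and 77.6 and 57.2 in Rbp2f/f cells with LIF. Car10 was between 33.3 and 56.6 on all arrays and Car7 between 17.2 and 70.4. Car9, the membrane enzyme best known for induction by low oxygen, did not pass the filter. It read 27.3 and 31.3 in Rbp2-/- and 18.4 and 9.6 in Rbp2f/f cells without LIF, and 20.1 and 18.8 in Rbp2-/- and 20.8 and 19.1 in Rbp2f/f cells with LIF. Car1 of red cells, mitochondrial Car5a and Car5b, secreted Car6, Car8, which lacks enzyme activity, and Car15 stayed at or under 34.4 on all arrays.

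**Figure D4:**
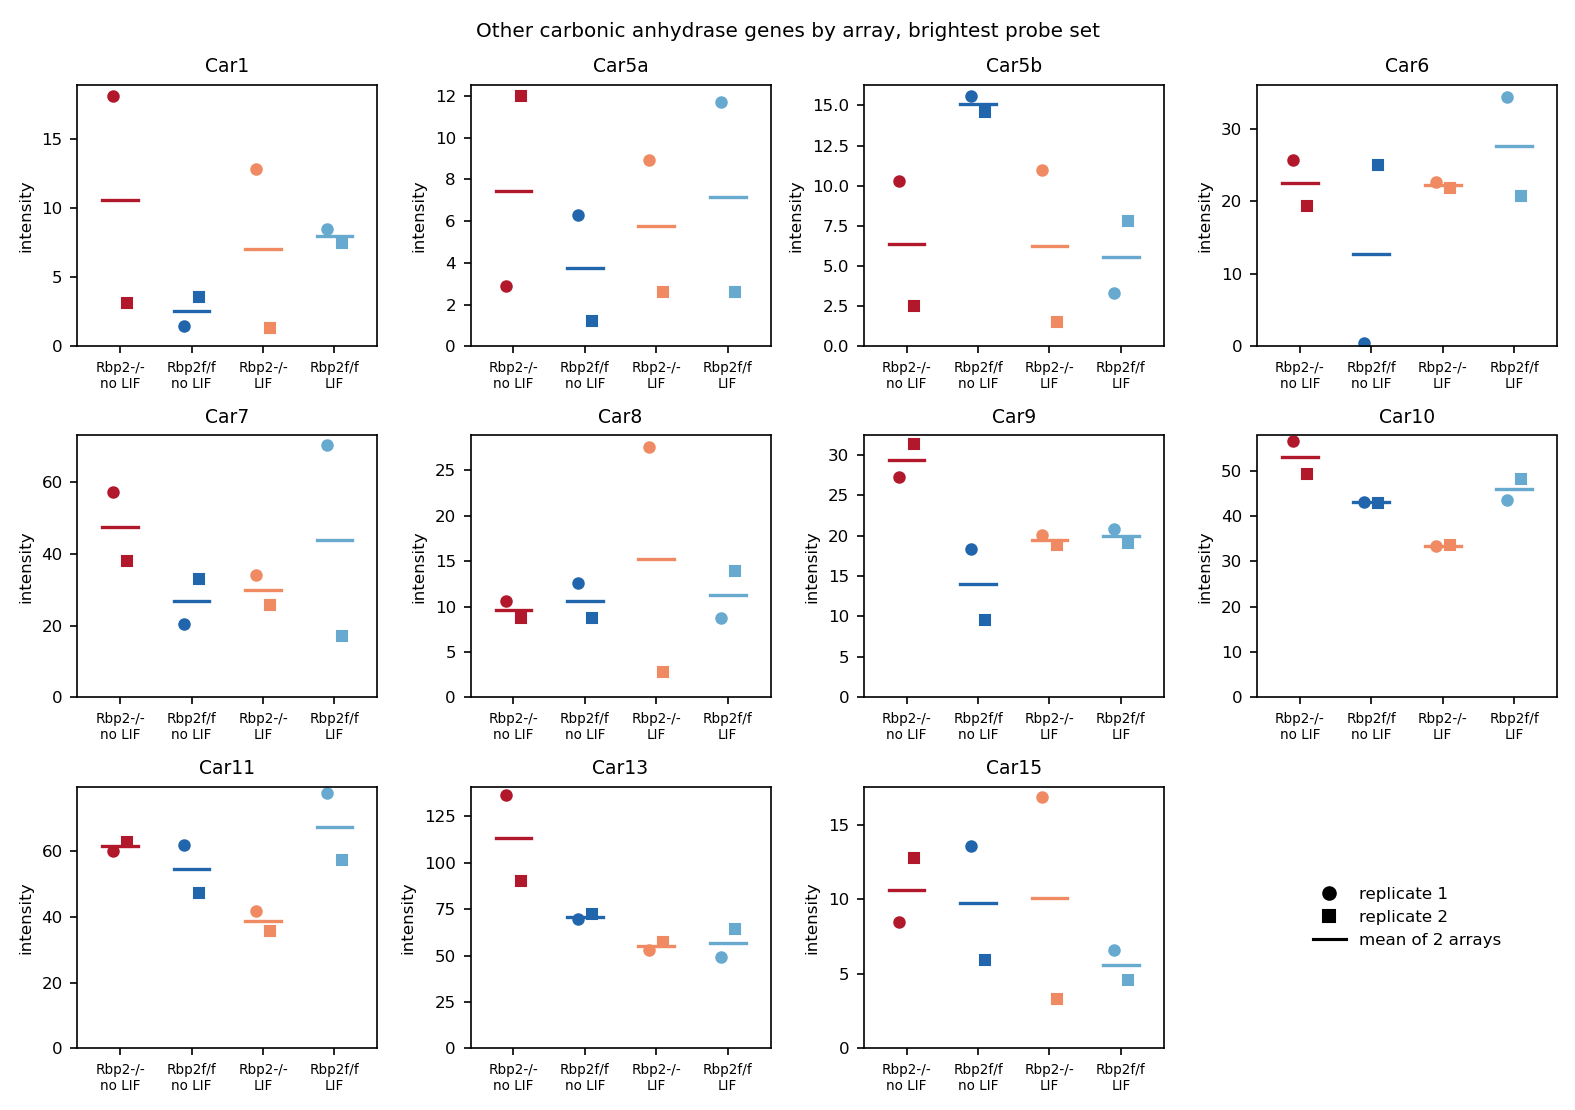
Intensity (linear axis) of the brightest probe set of the other 11 carbonic anhydrase genes on each array, with circles for replicate 1, squares for replicate 2 and lines for the mean of 2. Car13 reaches 136.7 and 90.1 in Rbp2-/- cells without LIF, and Car9 stays at or under 31.3.

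Transporters that carry bicarbonate were next in the pathway. Of 15 listed, 13 were measured and 6 passed the filter, and 0 of the 6 were called in any comparison (limma), with medians relative to all genes between -0.40 and -0.0030 over the 4 comparisons. The sodium bicarbonate cotransporter Slc4a4 had the smallest p. It read 41.5 and 86 in Rbp2-/- and 88 and 89.3 in Rbp2f/f cells without LIF, and 33.7 and 21 in Rbp2-/- and 36 and 50.2 in Rbp2f/f cells with LIF, and its adjusted p for withdrawal was 0.063 in Rbp2-/- and 0.070 in Rbp2f/f cells. The anion exchanger gene Slc4a2 read 332.3 and 407.7 without against 279.7 and 134.1 with LIF in Rbp2f/f cells (adjusted p = 0.096), and 141.5 and 264.8 without against 177.1 and 134.1 with LIF in Rbp2-/- cells (adjusted p = 0.55).

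Of 14 proton and monocarboxylate transport genes, 7 of 12 measured passed the filter. In Rbp2-/- cells 4 of the 7 rose on withdrawal and 0 fell (19.6% of all genes rose and 3.2% fell). In Rbp2f/f cells 0 were called, where 13.2% of all genes rose and 6.79% fell. The median difference of the 7 relative to all genes was 0.46 in Rbp2-/- and -0.08 in Rbp2f/f cells. After quantile normalization 2 were called in each genotype, all higher. Of all 10916 tested genes, 793 were then called higher in Rbp2-/- and 1504 in Rbp2f/f cells. The lactate and proton exporter Slc16a3 read 2304.9 and 1094.3 without against 612.5 and 193.8 with LIF in Rbp2-/- cells, and rose by 1.76 ± 0.50 (adjusted p = 0.0072). In Rbp2f/f cells Slc16a3 read 600.3 and 429 without against 314.6 and 825.4 with LIF, with overlapping arrays (adjusted p = 0.99). These withdrawal effects of Slc16a3 were not shown to differ (difference 1.85 ± 0.70, limma adjusted p = 0.36). Leaving out replicate 2 of Rbp2-/- with LIF ended the Slc16a3 call (adjusted p = 0.13), as did leaving out replicate 1 of Rbp2-/- without LIF (0.074) and median centring (0.056). Its adjusted p spanned 0.00050 to 0.13 across alternatives.

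Slc16a1, a monocarboxylate carrier, read 1440 and 1608.4 without against 859.5 and 465 with LIF in Rbp2-/- cells, and rose by 0.86 ± 0.30 (adjusted p = 0.0095, range 0.0036 to 0.10). Slc16a1 read 1911.5 and 1458.5 without against 756.6 and 1124.7 with LIF in Rbp2f/f cells (0.78 ± 0.30, adjusted p = 0.061, or 0.015 after quantile normalization). The Rbp2-/- call ended when replicate 2 of Rbp2-/- was left out of either medium (0.075 without LIF and 0.066 with LIF), and with all its probe sets averaged (0.10). Bsg, the chaperone of these carriers (0.46 ± 0.25, adjusted p = 0.025), and the sodium proton exchanger gene Slc9a5 (0.49 ± 0.30, adjusted p = 0.048) were also called higher in Rbp2-/- cells. The differences that limma tested, before the median was subtracted, were 0.85 for Bsg and 0.88 for Slc9a5. Their adjusted p in Rbp2f/f cells was 0.15 for Bsg (0.017 after quantile normalization) and 0.75 for Slc9a5. Quantile normalization ended both calls (0.055 for Bsg and 0.21 for Slc9a5). So did omitting any one of 3 Rbp2-/- arrays, namely replicate 1 without LIF (0.12 and 0.19), replicate 2 without LIF (0.11 and 0.13) and replicate 2 with LIF (0.10 and 0.23). The Slc9a5 call also ended with either Rbp2f/f array without LIF omitted (0.062 and 0.061).

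Subunits of the vacuolar proton pump (V-ATPase) were measured for 21 of 22 listed genes, and 16 passed the filter. On withdrawal 5 of 16 rose in Rbp2-/- and 2 of 16 in Rbp2f/f cells, and 0 fell in either. Of all tested genes, 19.6% rose in Rbp2-/- and 13.2% in Rbp2f/f cells, so the Rbp2f/f count is near the background. The list had medians relative to all genes of 0.21 in Rbp2-/- and 0.44 in Rbp2f/f cells. After quantile normalization 1 rose in Rbp2-/- and 6 rose in Rbp2f/f cells, beside 793 and 1504 of all 10916 tested genes. How near the Rbp2f/f count lay to the background thus depended on the scaling. Atp6ap1, an accessory subunit, read 375.3 and 553.3 without against 181.1 and 175.9 with LIF in Rbp2-/- cells, and 791.4 and 1146.2 without against 352.7 and 296.9 with LIF in Rbp2f/f cells. It rose by 0.89 ± 0.29 in Rbp2-/- (adjusted p = 0.0062) and by 1.45 ± 0.29 in Rbp2f/f cells (adjusted p = 0.0021). Each of these calls ended when replicate 2 without LIF of its own genotype was omitted (0.096 in Rbp2-/- and 0.058 in Rbp2f/f cells). No V-ATPase subunit was called for genotype.

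Targets of hypoxia-inducible factors, which include Car9 and Car12 in other cells, were given by 20 other genes, of which 19 were measured and tested. On withdrawal 8 rose and 0 fell in Rbp2-/- cells, and 4 rose and 2 fell in Rbp2f/f cells. Of all tested genes 19.6% rose and 3.2% fell in Rbp2-/-, and 13.2% rose and 6.79% fell in Rbp2f/f cells. The list had medians relative to all genes of 0.24 in Rbp2-/- and 0.08 in Rbp2f/f cells. After quantile normalization 3 rose and 2 fell in Rbp2-/-, and 3 rose and 3 fell in Rbp2f/f cells. Of all 10916 tested genes, 793 then rose and 882 fell in Rbp2-/-, and 1504 rose and 1411 fell in Rbp2f/f cells. P4ha1, a collagen prolyl hydroxylase subunit, read 420 and 282.7 without against 116.4 and 82.1 with LIF in Rbp2-/- cells (1.28 ± 0.28, adjusted p = 0.0010), and 214.9 and 204.8 against 121 and 97.3 in Rbp2f/f cells (0.79 ± 0.28, adjusted p = 0.043, lost after quantile normalization at 0.062 and without any 1 of the 4 Rbp2f/f arrays at 0.098 to 0.22). The glucose transporter gene Slc2a1 rose by 0.86 ± 0.23 in Rbp2-/- cells (adjusted p = 0.0016), and it read 5878.1 and 5292.3 without against 3018.5 and 1806.7 with LIF. It also rose in Rbp2f/f cells, by 0.67 ± 0.23 (adjusted p = 0.032, or 0.0037 after quantile normalization), and read 5214.4 and 5586.4 without against 2934.6 and 3576.7 with LIF there. Omitting any 1 of the 4 Rbp2f/f arrays ended that call (0.054 to 0.21).

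Pdk1, a kinase that inhibits pyruvate dehydrogenase, fell in Rbp2f/f cells by 2.38 ± 0.34 (adjusted p = 0.00028). It read 196.2 and 191.2 without against 917.3 and 1151.6 with LIF. In Rbp2-/- cells Pdk1 read 361.8 and 245.8 without against 841.4 and 386.4 with LIF (adjusted p = 0.066, or 0.012 after quantile normalization). For genotype, 0 of the 19 genes were called in either medium (limma), with a median relative to all genes of 0.49 without LIF and 0.03 with LIF.

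**Figure D5:**
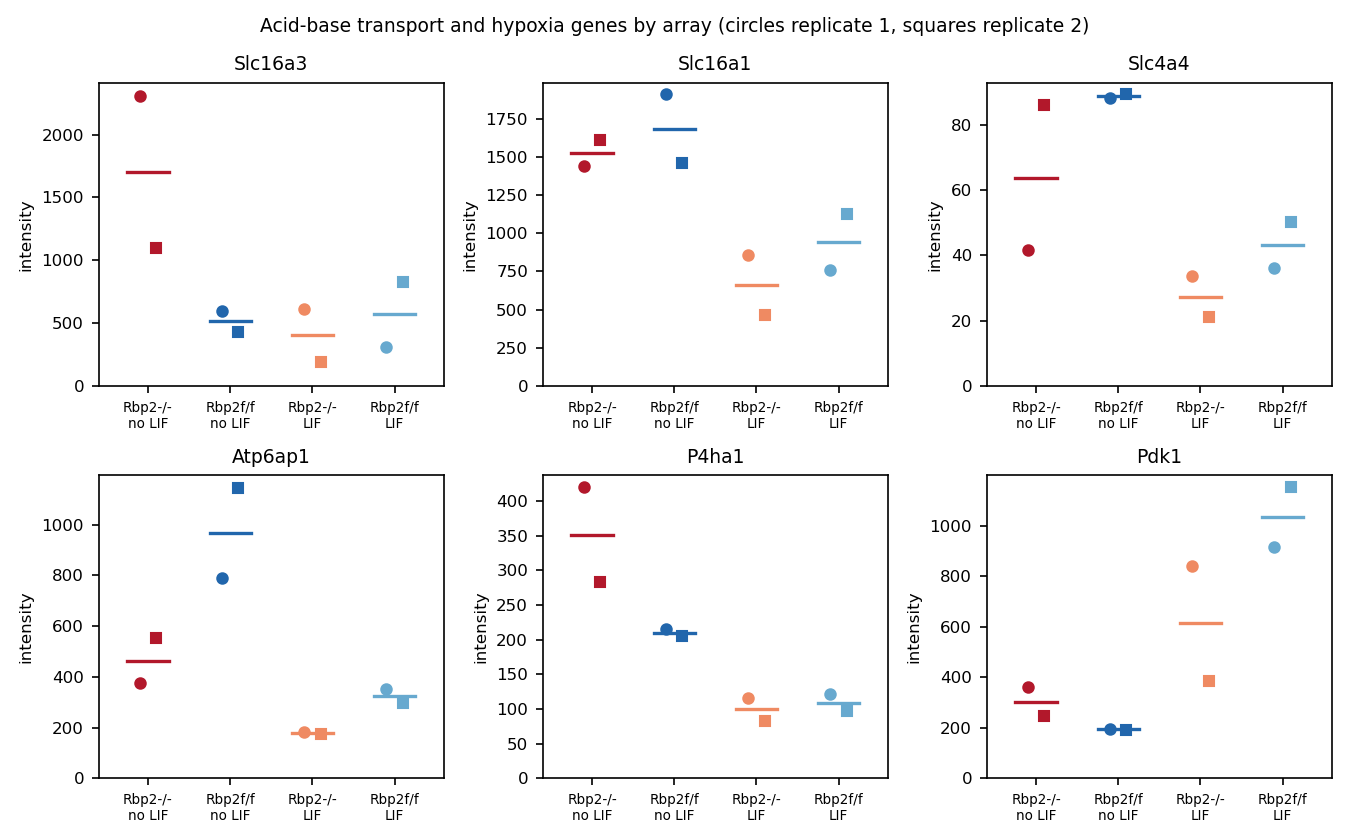
Intensity (linear axis) of 6 acid-base transport and hypoxia genes on each array, with circles for replicate 1, squares for replicate 2 and lines for the mean of 2. Slc16a3 reaches 2304.9 and 1094.3 in Rbp2-/- cells without LIF, and Pdk1 is lowest, at 196.2 and 191.2, in Rbp2f/f cells without LIF.

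Likeness of pattern was measured as Pearson's r of log2(intensity + 16) over the 8 arrays, which share 4 groups and 1 dim array, against the 10916 tested genes. It is a description, and 1 gene without a proper name was passed over for Car12. The genes most like Car4 were Bcar3, Mtrf1l and Abcd4 (r = 0.98 each, n = 8). Abcd4, a transporter of cobalamin, read 218.8 and 144.6 in Rbp2-/- and 107.7 and 73.8 in Rbp2f/f cells without LIF, and 74 and 42.7 in Rbp2-/- and 63.8 and 74.9 in Rbp2f/f cells with LIF. For Car3 they were Plod1, a collagen lysyl hydroxylase, Src, a tyrosine kinase, and Zdhhc12 (r = 0.95, 0.95 and 0.94). Plod1 read 253.4 and 271.1 in Rbp2-/- and 328.4 and 336.7 in Rbp2f/f cells without LIF, and 247.4 and 187 in Rbp2-/- and 140.7 and 135.3 in Rbp2f/f cells with LIF.

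Nrarp, a gene of Notch feedback, Nr2c1, a nuclear receptor, and Rsu1 were most like Car2 (r = 0.99, 0.99 and 0.98). Msgn1, a transcription factor of presomitic mesoderm, Epm2a and Mamdc4 were most like Car12 (r = 0.96, 0.94 and 0.92). Pphln1, Nipbl, which loads cohesin, and Ccnt1, a cyclin of transcription elongation, were most like Car14 (r = 0.99, 0.98 and 0.97). After quantile normalization Nrarp, Plod1 and Msgn1 ranked 1 for Car2, Car3 and Car12, while Nipbl and Ccnt1 dropped to ranks 286 and 277 for Car14, Nr2c1 to 190 for Car2 and Bcar3 to 91 for Car4. Between members, r was highest for Car2 with Car14 (0.82) and lowest for Car3 with Car12 (-0.07) over the 8 arrays.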

How the data were processed

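Mouse ES cells of 2 genotypes in 2 media were hybridised with 2 arrays per group. The authors deposited 1 intensity per probe set, on a linear scale; their summarisation software, background correction and scaling are not stated in the labels, and 1 array was left dimmer than the rest.

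From them, probe sets with 1 gene symbol (34958) were kept, each gene was taken as its probe set with the highest mean of log2(intensity + 16), and genes at or above the 40th percentile of that mean (10916 of 18194) were tested. The model was limma's (version 3.58.1, R 4.3.3; lmFit on 4 group means over 8 arrays, eBayes with trend, two-sided, Benjamini-Hochberg over all genes tested, called at adjusted p under 0.05), and the fit was tested on simulated data. Errors of log2 differences are standard errors.

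The members and lists were chosen with earlier results of these data known, and naming followed a rule: every carbonic anhydrase, the called genes of each list (at most 4, not all printed, or the 2 with the smallest p), the 3 genes most like each member, and Kdm5a. The number of arrays limits the precision. Alternatives were normalization, pseudocount, filter, probe set summary, the replicate block and leaving out each array; scaling to 1 trimmed mean and averaging on the intensity scale were added after seeing the data.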

Additional observations from a re-analysis of the deposited data

Results flagged for a closer look

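For the brightest probe set of 3 members every Rbp2-/- array lay on one side of the Rbp2f/f arrays with LIF and on the other side without LIF. On the other Car4 probe set the genotypes overlapped with LIF. The dimmer pair of Car3 and the other probe sets of Car12, a gene below the filter, showed no such order. The genotype difference without LIF minus that with LIF was 3.30 in log2 for Car4, -2.01 for Car3 and 1.09 for Car12, before the all-gene median of 0.31 was subtracted. For these members the difference was not tested, since their values had chosen them. The same arrangement held for 10.1% of tested genes.

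Among the other genes named, Car10 was lower in Rbp2-/- with LIF and higher without it, and its withdrawal effect also pointed opposite ways in the genotypes (difference 0.55, limma adjusted p = 0.54 for the interaction). In Rbp2f/f cells Car10 read 43.1 and 42.9 without against 43.6 and 48.2 with LIF, a narrow gap. The other Car10 probe set (1424547_at), at or under 7.8, was lower without LIF in both genotypes. Pdk1 in Rbp2-/- cells was below Rbp2f/f with LIF and above it without LIF (difference 1.41, limma adjusted p = 0.36). Car9 was higher without LIF in Rbp2-/- and lower without LIF in Rbp2f/f cells (difference 0.63); this difference was not tested because Car9 lay below the filter. Opposite withdrawal effects without overlap held for 5.42% of tested genes.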

How the results depend on the processing

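Of 425 member differences recomputed under alternatives, 386 moved by no more than the spread between replicates, 39 moved further, and 11 changed sign. In 2 of the 11 the value as reported was larger than that spread. They were Car12 for genotype with LIF, at 0.068 with all probe sets averaged, which brings in dim ones, and Car14 for withdrawal in Rbp2f/f, at -0.0108 when replicate 1 of Rbp2f/f with LIF was left out and 1.3883 when replicate 2 was. The other 9 sign changes were 3 of Car14 for genotype without LIF (lowest -0.49, against 0.01 as reported), 1 of Car14 for genotype with LIF (0.09), 1 of Car14 for the interaction (-0.07), 2 of Car2 for genotype with LIF (-0.07 and -0.01) and 2 of Car4 for withdrawal in Rbp2f/f (-0.17 and -0.21). Of these 9, 1 came with probe sets averaged and 8 with an array left out. All 85 Car4 differences moved by less than that spread, which is wide for Car4 (0.76 in log2).

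Counts of genes called depended on scaling. With LIF the genotype count of 25 was 0 after quantile normalization, median centring, trimmed-mean scaling or with no filter, 3 with probe sets averaged and 140 with the replicate block. Without LIF the count of 3 was 0 under the same 4 settings and with probe sets averaged, 15 with a pseudocount of 32 and 149 with the replicate block. The labels do not say that replicate numbers pair samples. Deviations of same-numbered arrays correlated at 0.26 in 3 of 6 pairs of groups, those among the groups other than Rbp2f/f with LIF, and at -0.08 to 0.00010 in the 3 pairs with it, so pairing was not taken as shown. The interaction count of 0 was 1 with probe sets averaged and 9 with the replicate block. Withdrawal in Rbp2-/- called 2486 genes (2137 higher and 349 lower), against 793 higher and 882 lower after quantile normalization, 904 and 841 after trimmed-mean scaling, and 1628 in all (693 and 935) after median centring. In Rbp2f/f it called 1442 higher and 741 lower, against 1504 and 1411 after quantile normalization, 1695 and 1310 after trimmed-mean scaling, and 1299 and 1851 after median centring.

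Leaving out 1 array gave 0 to 2425 genotype calls with LIF, 0 to 125 without LIF, 1074 to 4506 for withdrawal in Rbp2-/-, 856 to 3300 in Rbp2f/f and 0 to 1407 for the interaction; the lone array is then assumed to vary like the other groups. The counts of 2425, 4506 and 1407 came without replicate 1 of Rbp2-/- with LIF, which leaves the dim array alone, and 3300 came without the dim array. The counts of 125 and 1074 came without replicate 2 of Rbp2-/- without LIF, and 856 without replicate 2 of Rbp2f/f without LIF. The causes of these changes were not tested. Dim signal limits what can be read for Car12, Car9 and other genes below the filter.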
